A study of Rattus norvegicus with 9 samples.

Results

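The excitatory postsynaptic scaffold genes described here were Dlg4, which encodes PSD-95, and 8 of its partners in the postsynaptic density, namely Dlg2, Shank1, Shank2, Shank3, Homer1, Homer2, Dlgap1 and Dlgap3. They were chosen by gene symbol, and the 9 genes were found among 34092 in a table of FPKM (fragments counted on a gene, scaled by its length and by a factor for the library). The table covered 9 libraries of primary hippocampal neurons from rats of the WT genotype, taken from fetuses on embryonic day 17 and kept for 7 days in vitro, with 3 libraries from neurons given vehicle, 3 from neurons given 1 nM human NPCT and 3 from neurons given 1 nM human PCT. Peptides were applied for 24 h. NPCT, or aminoprocalcitonin, is the amino-terminal peptide cut from procalcitonin (PCT), its parent. The cultures were grown without mitotic inhibitors, and the methods speak of RNA from pooled triplicates while the labels number 3 replicates a group. P values therefore measure only the spread between these libraries, which may be technical.

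The postsynaptic density is the protein sheet under the membrane of an excitatory synapse, and it lies mostly at the head of dendritic spines. PSD-95 and its relatives, the membrane-associated guanylate kinases, bind the tails of NMDA receptors, of AMPA receptor auxiliary subunits and of adhesion molecules with their PDZ domains. The Dlgap proteins (also called SAPAP or GKAP) bind the guanylate kinase domain of PSD-95 and link it to the Shank proteins, large scaffolds of the deeper layer. Homer proteins bind Shank and group I metabotropic glutamate receptors and join them to calcium stores, while gephyrin, encoded by Gphn, is the corresponding scaffold of inhibitory synapses. Hippocampal neurons at this stage in culture are forming their synapses.

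Stretches of 250 bases in front of the gene start were taken from RefSeq on GRCr8 for the 4 genes that differed between NPCT and vehicle at an unadjusted p of at most 0.05, to set side by side the starts of a pair that was higher with NPCT (Dlg4 and Dlgap3) and a pair that was lower (Dlg2 and Homer1). Over all genes, 14.4% were higher and 14.9% lower at that p, and none of the 4 had an adjusted p of at most 0.05. Which genes pass the unadjusted p depends on the libraries included. Each is written 5′ to 3′ on the plus strand, and capitals mark every CG.
Dlg4, chr10:55239534-55239783: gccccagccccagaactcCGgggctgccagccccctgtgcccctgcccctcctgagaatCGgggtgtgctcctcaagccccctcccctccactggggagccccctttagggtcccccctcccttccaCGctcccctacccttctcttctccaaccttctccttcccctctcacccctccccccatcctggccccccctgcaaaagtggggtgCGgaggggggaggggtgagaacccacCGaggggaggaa
Dlgap3, chr5:144800015-144800264: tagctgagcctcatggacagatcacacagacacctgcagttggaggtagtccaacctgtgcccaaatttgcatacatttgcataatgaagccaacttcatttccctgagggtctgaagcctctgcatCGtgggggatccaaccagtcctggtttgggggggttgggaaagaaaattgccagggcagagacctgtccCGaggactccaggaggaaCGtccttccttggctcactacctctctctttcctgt
Dlg2, chr1:154539421-154539670: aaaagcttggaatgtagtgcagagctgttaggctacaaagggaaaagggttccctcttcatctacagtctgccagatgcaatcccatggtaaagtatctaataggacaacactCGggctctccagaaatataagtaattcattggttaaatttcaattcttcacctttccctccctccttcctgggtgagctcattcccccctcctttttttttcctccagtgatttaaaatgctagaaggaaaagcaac
Homer1, chr2:26278762-26279011: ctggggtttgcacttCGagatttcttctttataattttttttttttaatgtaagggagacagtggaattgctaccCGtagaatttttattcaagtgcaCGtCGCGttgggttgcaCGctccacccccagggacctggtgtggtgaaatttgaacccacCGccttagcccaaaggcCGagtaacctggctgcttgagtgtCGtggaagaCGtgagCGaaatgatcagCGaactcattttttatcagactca
The Dlg4 stretch was 69.2% G and C, more than 90.8% of all 33469 such stretches, against 52.8% for Dlgap3, 42.4% for Dlg2, 46.4% for Homer1 and a median of 51.2% over all. Homer1 had the most CG of the 4, 12, against 5 in Dlg4, 3 in Dlgap3 and 1 in Dlg2, with a median of 5 over all stretches. On both strands, GGGCGG (which holds a CG itself), TGACGTCA and CACGTG were in none of the 4 and are present in 30.5%, 1.59% and 5.59% of all stretches. TATAAA was in the Homer1 stretch alone of these, on the reverse strand (written tttata above), and is in 12.9% of all. Of the 9 genes 6 had such a stretch, and Shank1, Shank2 and Homer2 had none. RNA alone does not show which start was used, and nothing about regulation was measured at these sites.

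Whole fragments could be recovered from the values, and they summed to between 13573056 and 17211642 per library. Replicate libraries were further apart than sampling allows, with a chi-square per degree of freedom of 4.16 to 21.6 between pairs. PCT replicate 3 stood apart from its group, at 21.6 and 18.9 against PCT replicates 1 and 2, which were 6.38 from each other. NPCT replicate 3 stood apart to a lesser degree, at 10.6 and 10.8 against 4.38 between NPCT replicates 1 and 2. The counts of scaffold genes are given with and without these libraries in the comparisons that include their group. Relative to the mean of all libraries, the levels of PCT replicate 3 fell by 0.028 on the log2 scale for each doubling of gene length, and those of the NPCT libraries fell by 0.019 to 0.026. Those of PCT replicates 1 and 2 rose by 0.022 and 0.027, and those of the vehicle libraries changed by 0.019, 0.029 and -0.00046. The 9 genes had a median length of 3688 bases against 2136 for all genes tested. All 10 neuron markers were present, with a summed level of 2239 to 2329 FPKM in vehicle, 2073 to 2149 in NPCT and 2200 to 2428 in PCT libraries. The 8 astrocyte markers summed to 2128 to 2315, 2052 to 2369 and 1936 to 2012 FPKM, and the 7 listed microglia markers with a row to 19.8 to 27.4, 27.3 to 114.1 and 8.39 to 10.9 FPKM, so the cultures labelled as neurons held glial RNA too. None of these markers was at 0 in every library, whereas Cldn5, a marker of endothelium, was. The other listed endothelium markers with a row, Kdr, Cdh5, Tek and Flt1, had fragments in every library. Of these Kdr was the highest, at 0.777 to 1.50 FPKM, so endothelial RNA was low but cannot be called absent. In bulk RNA, fewer cells of a type and less RNA per cell cannot be told apart.

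All 9 scaffold genes were transcribed in every library, over a 43.96-fold range of mean FPKM in vehicle. Dlg4 was the highest at 127 ± 4.80 FPKM (SD, n = 3), and by its mean over the 9 libraries it was above 96.8% of the genes tested. Shank1 followed at 74.6 ± 4.92 FPKM and Dlg2 at 50.5 ± 1.25 FPKM. Dlgap3 (32.6 ± 2.29), Dlgap1 (29.1 ± 1.75) and Shank3 (28.3 ± 1.66 FPKM) lay close together, and Dlgap1 and Shank3 overlapped between vehicle libraries and kept the order of their means in 5 of 9 libraries. Homer1 (21.3 ± 1.31 FPKM) and Homer2 (14.2 ± 0.534 FPKM) came next. Shank2 was the lowest at 2.90 ± 0.398 FPKM, and by the same measure it was above 24.5% of genes. Apart from Dlgap1 with Shank3 and Dlg2 with Dlgap3, where Dlg2 was the higher in 7 of 9 libraries, the order of neighbours was the same in each of the 9 libraries. Levels are per length of the gene model in the table, so they can be set side by side as far as those lengths are right.

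**Figure D1:**
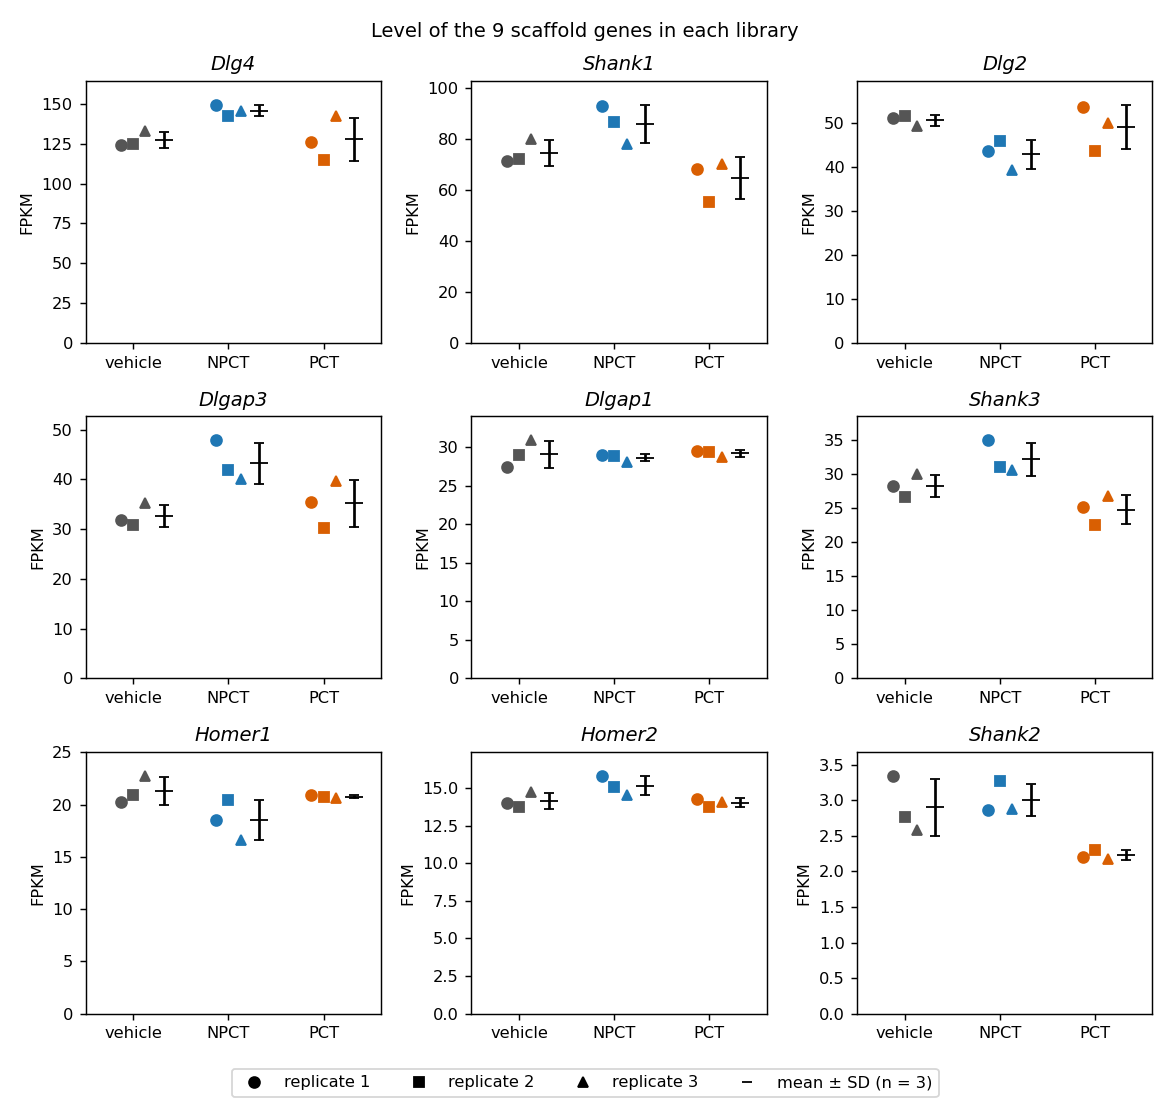
FPKM of each scaffold gene (vertical axes, from 0) in the 3 vehicle, 3 NPCT and 3 PCT libraries, with symbols for the replicate number and the mean ± SD beside them. The NPCT libraries lie above the vehicle libraries for Dlg4, Dlgap3 and Shank3 and below them for Dlg2, and the PCT libraries lie below vehicle for Shank1 and Shank2.

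Single libraries took part in these differences to different extents. Of the vehicle libraries, replicate 3 was the highest for 7 of the 9 genes, and in it the immediate early gene Egr1 stood at 52.2 FPKM against 12.6 and 14.3 FPKM in replicates 1 and 2. NPCT replicate 3 was the lowest of its group for 7 genes, and it was also the library with the highest summed microglia level, 114.1 FPKM. PCT replicate 2 was the lowest of its group for 6 genes.

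The 1st comparison asked what NPCT does to these transcripts. With NPCT, none of the 9 genes was called, by the thresholds of the study (here in limma with Benjamini-Hochberg adjustment, an adjusted p no larger than 0.05 together with more than 1.5-fold change), where 0.219% of the 15958 genes tested were called, and none had an adjusted p of at most 0.05 whatever its fold change, against 0.470% of genes. limma-voom on the recovered fragments also called 0. The study, with DESeq2 on counts, reported more genes at these thresholds than the main fit called. With only vehicle and NPCT libraries in the fit, limma called 579 genes, none of the 9. The adjusted p of Dlg4, Dlg2 and Dlgap3 in that fit are given below. In the main fit the smallest adjusted p over all genes was 0.0493, so a count of 0 among 9 says little about these genes. At an unadjusted p of at most 0.05, Dlg4 and Dlgap3 were higher, 2 of 9 where 14.4% of all genes were, and Dlg2 and Homer1 were lower, 2 of 9 where 14.9% were. The libraries of both groups did not overlap for 4 of 9 genes, with Dlg4, Dlgap3 and Shank3 higher and Dlg2 lower, against 40.3% of all genes. The count at an unadjusted p depended on single libraries and on the fit. Without NPCT replicate 3 it was 3 higher (Dlgap3, Shank1 and Shank3) and 0 lower, since Dlg4, Dlg2 and Homer1 no longer passed. It was 2 in all without vehicle replicate 1, 1 (Dlgap3) without vehicle replicate 2 and 2 without NPCT replicate 1, and Dlgap3 was among the genes that passed in each of these fits. The count rose in other fits, to 4 higher and 2 lower without PCT replicate 2 and to 3 and 2 without PCT replicate 3. It was 4 and 1 with only vehicle and NPCT libraries, and 4 and 2 with the trend with gene length removed. The median log2 fold change of the 9 genes was 0.10, and that of all genes 0.0062. These shares are near the background, and the pattern of the 9 genes is given as a description of their values.

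Dlg4 (ENSRNOG00000018526, chromosome 10 from 56627411 to 56653599 on Rnor_6.0) measured 124, 125 and 133 FPKM with vehicle and 149, 143 and 145 FPKM with NPCT. Every NPCT library was above every vehicle library. The log2 fold change was 0.19 (SE 0.077, 95% interval 0.02 to 0.37), with an adjusted p of 0.133 from limma. Dlg2 (chromosome 1 from 156552328 to 157269747), the closest relative of Dlg4 among these genes, stood at 51.1, 51.5 and 49.1 FPKM with vehicle and at 43.5, 45.7 and 39.1 FPKM with NPCT. Here the NPCT libraries were all below vehicle, with a log2 fold change of -0.24 (SE 0.086, interval -0.44 to -0.05) and an adjusted p of 0.106 from limma. Beside these pair members, the 10 neuron markers had a median log2 fold change of -0.21. At an unadjusted p of at most 0.05, 0 of them were higher and 6 lower, where 14.4% and 14.9% of all genes were. Of 6 excitatory neuron markers 1 was higher and 4 lower at that p, with a median of -0.29. The 8 astrocyte markers had a median of 0.03 (1 higher and 2 lower). The 7 microglia markers had 0.49 (1 and 0) and the 8 oligodendrocyte lineage markers 0.15 (3 and 0). The part of cell content in the Dlg2 and Dlg4 values was not tested. With only the vehicle and NPCT libraries in the fit, the adjusted p from limma was 0.0277 for Dlg4 and 0.0431 for Dlg2. Without PCT replicate 3 it was 0.0335 for Dlg4 and 0.0829 for Dlg2, and in the other 17 alternatives it was above 0.05 for both. Without NPCT replicate 3 the log2 fold change of Dlg2 was -0.18 and that of Dlg4 was 0.20 (limma adjusted p 0.252 and 0.230).

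Among the Dlgap genes, Dlgap3 (chromosome 5 from 145257714 to 145304536) had the largest fold change with NPCT of the 9. Its level was 31.8, 30.9 and 35.2 FPKM with vehicle and 47.9, 41.8 and 40.0 FPKM with NPCT. The NPCT libraries were all above vehicle, and the log2 fold change was 0.40 (SE 0.109, interval 0.16 to 0.65), a fold of 1.32, with an adjusted p of 0.0625 from limma. It passed 0.05 in 3 of 19 alternative analyses, namely limma-voom (adjusted p 0.0360), the fit of only vehicle and NPCT libraries (0.0204) and the fit without PCT replicate 3 (0.0198), but its fold change stayed under 1.5 in all 19. Dlgap1 (chromosome 9 from 118586179 to 119158196) measured 27.4 to 30.9 FPKM with vehicle and 28.1 to 28.9 FPKM with NPCT, and the groups overlapped. Its log2 fold change was -0.02, with an interval from -0.16 to 0.11.

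The Shank genes, whose products bind the Dlgap proteins, had values above 0 with NPCT that did not pass the adjustment. Shank1 (chromosome 1 from 100297152 to 100344377) went from 71.4, 72.1 and 80.2 FPKM with vehicle to 93.0, 86.8 and 78.1 FPKM with NPCT, and NPCT replicate 3 lay among the vehicle libraries (log2 fold change 0.20, SE 0.104, limma adjusted p 0.226). Shank3 (chromosome 7 from 130474279 to 130534679) measured 28.3, 26.7 and 30.0 FPKM with vehicle and 35.0, 31.1 and 30.6 FPKM with NPCT. Its groups did not overlap, but the lowest NPCT library was only just above the highest vehicle library (log2 fold change 0.19, SE 0.086, limma adjusted p 0.185). Shank2 (chromosome 1 from 217151166 to 217592763) measured 3.35, 2.77 and 2.58 FPKM with vehicle and 2.87, 3.27 and 2.88 FPKM with NPCT, with full overlap and an interval of the log2 fold change from -0.26 to 0.37.

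Homer1 and Homer2, which bind Shank and metabotropic receptors, pointed to opposite sides. Homer1 (chromosome 2 from 22909569 to 23009678) measured 20.2, 21.0 and 22.8 FPKM with vehicle and 18.5, 20.4 and 16.6 FPKM with NPCT, with 1 NPCT library inside the vehicle range (log2 fold change -0.21, SE 0.083, limma adjusted p 0.141). Without NPCT replicate 3 the log2 fold change was -0.13 (limma adjusted p 0.327). A gene-level value does not separate the short activity-induced Homer1a from the longer forms. Homer2 (chromosome 1 from 143443300 to 143535583, minus strand) was 13.7 to 14.8 FPKM with vehicle and 14.5 to 15.8 FPKM with NPCT (log2 fold change 0.10, SE 0.064, limma adjusted p 0.338). The library preparation as described does not mark strand, so reads of an antisense transcript would be counted with the gene.

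**Figure D2:**
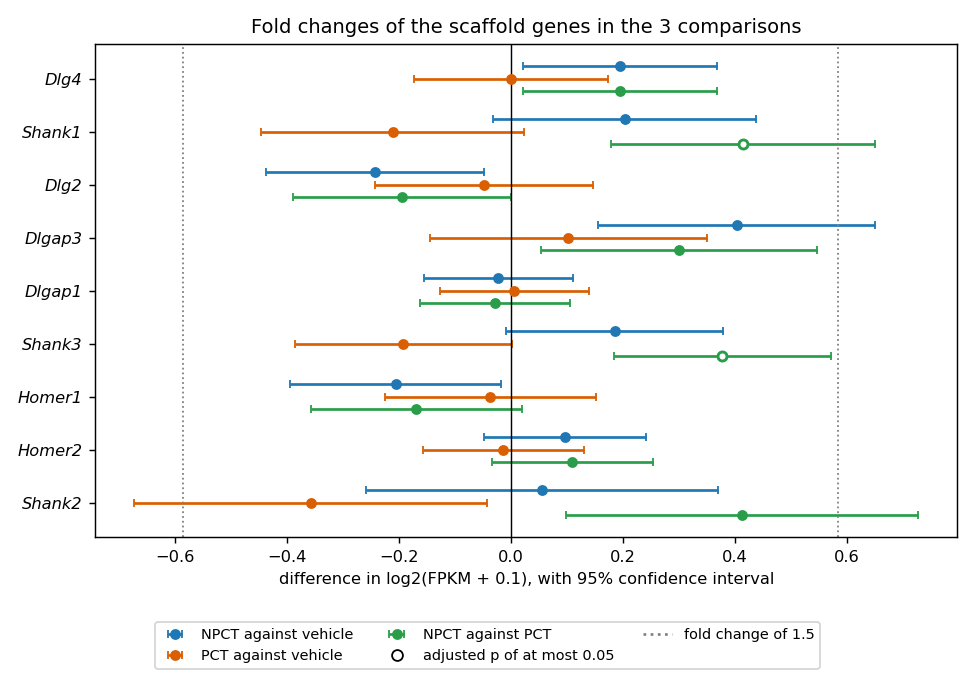
Differences in log2(FPKM + 0.1) of each scaffold gene (horizontal axis) with 95% confidence intervals from limma, for NPCT against vehicle, PCT against vehicle and NPCT against PCT. Open circles, an adjusted p of at most 0.05, are found for Shank1 and Shank3 between NPCT and PCT, and no estimate reaches the dotted lines at a fold change of 1.5.

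Partners of the scaffold were counted in lists written by symbol. Of 17 other scaffold genes, 3 were higher and 1 lower with NPCT at an unadjusted p of at most 0.05, and of 22 signalling and actin-linked genes 6 were higher and 4 lower. Of 16 adhesion genes 2 were higher and 6 lower, and of 18 glutamate receptor genes and auxiliary subunits 0 were higher and 6 lower. Over all genes, 14.4% were higher and 14.9% lower at that p. None of these genes passed an adjusted p of 0.05, where the smallest limma adjusted p over all genes was 0.0493. The medians of the 4 lists were 0.01, -0.01, -0.16 and -0.07 on the log2 scale. Homer3, the remaining Homer gene, had a log2 fold change of 0.43 (SE 0.111, limma adjusted p 0.0590), with NPCT libraries at 17.4 to 20.5 FPKM and vehicle libraries at 13.3 to 15.3 FPKM. Ppp1r9b, which encodes the spine protein spinophilin, had 0.24 (limma adjusted p 0.0830). Lin7b, a PDZ adaptor, stood at 0.43 (limma adjusted p 0.102). On the other side, the adhesion molecules Lrrtm2 and Nlgn1, both binding partners of neurexin, had -0.63 and -0.38 (limma adjusted p 0.0509 and 0.0519). The receptor subunits Grin3a and Gria4 had -0.52 and -0.37 (limma adjusted p 0.0509 and 0.0516). Lrrtm2 fell outside the vehicle range in every NPCT library, with 7.14 to 8.39 FPKM against 10.8 to 12.7 FPKM. Of 9 activity-induced genes tested none had an unadjusted p of at most 0.05, and Bdnf and Fos, those with the smallest p, had -0.27 and -0.40 with overlapping groups. Fos rested on vehicle replicate 3, at 23.8 FPKM against 9.85 and 11.1 FPKM in the other vehicle libraries, and without it the difference was -0.0070.

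**Figure D3:**
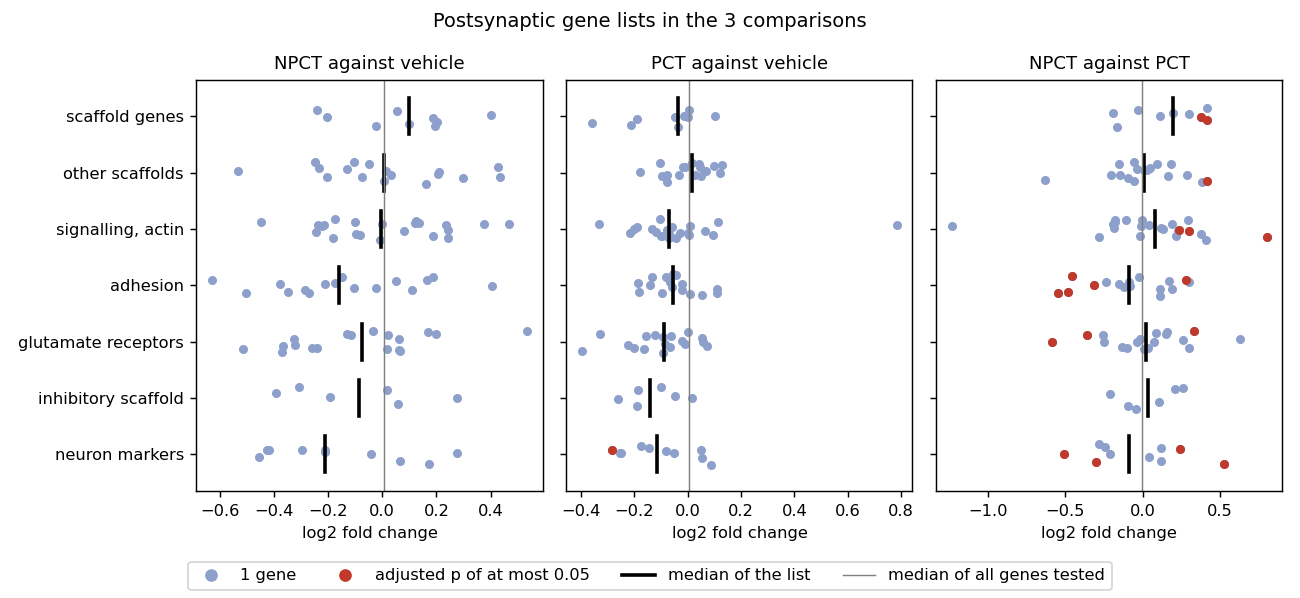
Log2 fold changes of the scaffold genes and of 6 related lists (rows) in the 3 comparisons (panels, each with its own horizontal scale). Each point is a gene, red where the adjusted p was at most 0.05, the black bar is the median of the list and the grey line that of all genes tested. The scaffold genes have a median of 0.10, -0.04 and 0.19 in the 3 panels.

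The 2nd comparison was between PCT, the parent peptide, and the same vehicle libraries. None of the 9 genes was called with PCT by limma, against 2.31% of all genes, and none had an adjusted p of at most 0.05, against 4.20%. limma-voom called 0 as well. At an unadjusted p of at most 0.05, 0 of 9 genes were higher (10.1% of all genes) and 1, Shank2, was lower (8.79%). Without PCT replicate 3, Shank2 did not pass, while Shank1 and Shank3 did and were lower, and without vehicle replicate 1 or PCT replicate 1 none of the 9 passed. The libraries did not overlap for Shank1 and Shank2, both lower with PCT, 2 of 9 against 24.9% of all genes. The median log2 fold change of the 9 genes was -0.04. Since both peptides were compared with the same 3 vehicle libraries, the values for NPCT and PCT are not independent, and they are only placed beside each other.

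The lowest log2 fold changes with PCT were those of the Shank genes, of which only Shank2 had an unadjusted p of at most 0.05. No test of the Shank genes as a family was made. Shank2 had 2.21, 2.31 and 2.17 FPKM with PCT, all under the lowest vehicle library at 2.58 FPKM, with a log2 fold change of -0.36 (SE 0.139, limma adjusted p 0.202) where NPCT gave 0.06. Shank1 had 68.3, 55.3 and 70.4 FPKM with PCT, against 71.4 FPKM in the lowest vehicle library. Its log2 fold change was -0.21 (SE 0.104, limma adjusted p 0.318) where NPCT gave 0.20. Shank3 had 25.1, 22.5 and 26.8 FPKM with PCT, and its highest PCT library was level with the lowest vehicle library at 26.7 FPKM (log2 fold change -0.19, SE 0.086, limma adjusted p 0.271, where NPCT gave 0.19). Without PCT replicate 2, the library lowest for Shank1 and Shank3, the log2 fold change of Shank1 was -0.10 and that of Shank3 was -0.12. Without PCT replicate 3 these were -0.28 and -0.25, with adjusted p of 0.189 and 0.144 from limma.

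The remaining genes differed little in their means with PCT. Dlg4 had 126, 115 and 142 FPKM, a mean of 128 ± 13.6 FPKM that matched vehicle, with an interval of the log2 fold change from -0.17 to 0.17. Dlg2 had 53.5, 43.6 and 50.0 FPKM (log2 fold change -0.05, interval -0.24 to 0.15). Dlgap3 had 35.5, 30.3 and 39.8 FPKM (0.10, interval -0.14 to 0.35), and this spread covered all 3 vehicle libraries. Its log2 fold change was 0.011 without PCT replicate 3 and 0.21 without PCT replicate 2. Dlgap1 at 28.7 to 29.5 FPKM, Homer1 at 20.6 to 20.9 FPKM and Homer2 at 13.7 to 14.3 FPKM had log2 fold changes of 0.01, -0.04 and -0.01, and the widest of their intervals ran from -0.23 to 0.15.

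Among partners with PCT, where 10.1% of all genes were higher and 8.79% lower at an unadjusted p of at most 0.05, 0 of 17 other scaffold genes passed an unadjusted p of 0.05, and Grip1 and Cask, with the smallest p, had log2 fold changes of 0.13 and -0.18. Of 22 signalling genes 0 were higher and 2 lower, Camk2a, the kinase abundant in the postsynaptic density, at -0.20 and Iqsec2, an Arf exchange factor, at -0.21. Of 16 adhesion genes 1, Epha4, was lower at -0.18, while Lrrc4b, next in p, had -0.09. Of 18 receptor genes 0 were higher and 2 lower. Grm5, the group I metabotropic receptor that Homer binds, had 44.0, 36.2 and 38.3 FPKM with PCT against 49.9 to 53.3 FPKM with vehicle (log2 fold change -0.40, SE 0.099, limma adjusted p 0.0618). Shisa6, an AMPA receptor auxiliary protein, had -0.33 (limma adjusted p 0.178). Of the activity-induced genes, Egr4 had -1.28 and Junb 0.61, and both overlapped with vehicle. Without vehicle replicate 3, where Egr4 stood at 4.08 FPKM against 1.06 and 0.844 FPKM, these were -0.62 and 0.89. Glial markers moved beside these values, since 4 of 8 astrocyte markers and 3 of 7 microglia markers were called lower with PCT. Their medians were -0.46 and -1.38, and of all genes 2.31% were called in either direction. At an unadjusted p of at most 0.05, 1 astrocyte marker was higher and 6 were lower. The 10 neuron markers had a median of -0.11, with 0 higher and 2 lower at that p. The part of these markers in the scaffold values was not tested.

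The 3rd comparison set the fragment against its parent at the same dose and time. None of the 9 genes was called by both thresholds, against 5.76% of all genes, and limma-voom called 0 too. Shank1 and Shank3, 2 of 9, were higher with NPCT than with PCT at an adjusted p of at most 0.05 with fold changes of 1.33 and 1.30, against 7.97% of all genes that were higher at that p. At an unadjusted p of at most 0.05, 5 of 9 were higher with NPCT (Dlg4, Dlgap3 and the 3 Shank genes), where 15.6% of all genes were, and 0 of 9 were lower, where 17.5% were. Both counts moved with single libraries. Without NPCT replicate 1 there were 3 higher and 0 lower, without NPCT replicate 2 there were 4 higher and 2 lower (Dlg2 and Homer1), and without NPCT replicate 3 there were 4 higher and 0 lower. Leaving out PCT replicate 1 gave 4 higher and 0 lower, leaving out PCT replicate 2 gave 3 higher and 1 lower (Dlg2), and without PCT replicate 3 the same 5 genes passed. Dlg2 was also lower at that p with either other pseudocount and with no filter on low values. The groups did not overlap for 7 of 9 genes, with 6 higher and Homer1 lower with NPCT, against 33.4% of all genes. The median log2 difference over the 9 genes was 0.19, and over all genes -0.0076.

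Shank3 showed the smallest p of the 9. Its NPCT libraries (30.6 to 35.0 FPKM) were all above its PCT libraries (22.5 to 26.8 FPKM), with a log2 difference of 0.38 (SE 0.086, interval 0.18 to 0.57, limma adjusted p 0.0220). Shank1 ranged from 78.1 to 93.0 FPKM with NPCT and from 55.3 to 70.4 FPKM with PCT, with a log2 difference of 0.41 (SE 0.104, interval 0.18 to 0.65, limma adjusted p 0.0301). Shank2, at 2.87 to 3.27 against 2.17 to 2.31 FPKM, had the same log2 difference of 0.41 with a larger error (SE 0.139, limma adjusted p 0.0749). Its adjusted p was at or below 0.05 in 2 of 19 alternatives, 0.0180 in limma-voom and 0.0436 in limma with the trend with gene length removed. In each Shank gene the NPCT mean was above and the PCT mean below the vehicle mean. The adjusted p of Shank3 was above 0.05 in 4 of 19 alternatives, namely without NPCT replicate 1 (0.0766), without PCT replicate 1 (0.0592), without PCT replicate 2 (0.0692) and with the 2 groups alone (0.0653). That of Shank1 was above 0.05 in 7, namely without vehicle replicate 1 (0.0501) or 2 (0.0503), without NPCT replicate 1 (0.100) or 2 (0.0737), without PCT replicate 1 (0.0583) or 2 (0.0765) and with the 2 groups alone (0.0814). Without PCT replicate 3, the adjusted p from limma was 0.00750 for Shank3, 0.0126 for Shank1, 0.00968 for Dlg4 and 0.0222 for Dlgap3. Without PCT replicate 2 the log2 difference of Dlg4 went down to 0.12 (limma adjusted p 0.309) and that of Dlgap3 to 0.20 (limma adjusted p 0.257).

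Dlg4 was at 143 to 149 FPKM with NPCT and at 115 to 142 FPKM with PCT, so that PCT replicate 3 came within 1 FPKM of the lowest NPCT library (log2 difference 0.19, SE 0.077, limma adjusted p 0.114). Dlgap3 was at 40.0 to 47.9 against 30.3 to 39.8 FPKM, likewise with PCT replicate 3 at the edge (0.30, SE 0.109, limma adjusted p 0.0925). Dlg2 had a log2 difference of -0.19 (interval -0.39 to 6e-05) and overlapped, and the difference was -0.13 without PCT replicate 1. Homer1 was lower with NPCT in every library, 16.6 to 20.4 against 20.6 to 20.9 FPKM, with a log2 difference of -0.17 (SE 0.083, limma adjusted p 0.192) that became -0.09 without NPCT replicate 3. Homer2 was higher in every NPCT library, 14.5 to 15.8 against 13.7 to 14.3 FPKM (0.11, interval -0.03 to 0.25), and Dlgap1 overlapped (-0.03, interval -0.16 to 0.10).

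Some partners differed more between the peptides than the scaffold genes did. Nrgn, which encodes the calmodulin-binding neurogranin of dendritic spines, was called, at 33.6 to 42.0 FPKM with NPCT and 18.1 to 24.5 FPKM with PCT (log2 difference 0.80, SE 0.152, limma adjusted p 0.0125). Grin3a was called in the other direction, at 4.55 to 5.51 against 6.94 to 8.36 FPKM (-0.59, SE 0.103, limma adjusted p 0.00942). Homer3 was higher with NPCT (0.42, limma adjusted p 0.0365), and Mpp2, another guanylate kinase scaffold, had 0.29 (limma adjusted p 0.0720). Ppp1r9b was higher (0.30, limma adjusted p 0.0309), as was the adhesion molecule Lrrc4b (0.28, limma adjusted p 0.0125), while Lrrtm2 (-0.55, limma adjusted p 0.0189) and Gria4 (-0.36, limma adjusted p 0.0205) were lower. By list, an adjusted p no larger than 0.05 was found for 1 higher and 0 lower of 17 other scaffold genes, 3 and 0 of 22 signalling genes, 1 and 4 of 16 adhesion genes and 1 and 2 of 18 receptor genes, where 7.97% of all genes were higher and 8.32% lower. Bdnf and Fos had -0.55 and -0.63 (limma adjusted p 0.0641 and 0.163). Of the microglia markers 6 of 7 were called higher with NPCT than with PCT, and of the astrocyte markers 2 of 8. Of all genes 5.76% were called in either direction. The 10 neuron markers had a median of -0.09. The part of these markers in the scaffold differences was not tested.

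Among paralogues, the share of each scaffold gene was described as a percent of the summed FPKM of the scaffold genes of the same name in a library. The sums leave out Dlg1, Dlg3, Dlgap2, Dlgap4 and Homer3, which are not among the 9 genes, so they are not shares of whole families. With vehicle, Dlgap4 at 50.4 ± 1.15 FPKM was above both Dlgap genes shown here, and Homer3 at 14.1 ± 1.02 FPKM was level with Homer2. Dlg4 made up 71.6% ± 1.25 of Dlg4 and Dlg2 together with vehicle, 77.3% ± 1.54 with NPCT and 72.2% ± 1.90 with PCT (SD, n = 3), and the lowest NPCT library, 75.7%, was above the highest of the others, 74.0%. Dlgap3 made up 52.8% ± 1.12, 60.1% ± 1.96 and 54.5% ± 3.64 of the Dlgap pair. Homer1 made up 60.1% ± 0.852 of the Homer pair with vehicle, 54.9% ± 2.27 with NPCT and 59.7% ± 0.463 with PCT. In these 3 pairs NPCT libraries lay outside the range of both other groups for the share. Of all single genes, 40.3% did not overlap between NPCT and vehicle and 33.4% between NPCT and PCT. The shares are made from the values of the genes described above, so they are not separate evidence. The 3 Shank genes were different in that their shares were alike in the 3 groups, with Shank1 at 70.5%, 70.9% and 70.4%, Shank3 at 26.8%, 26.6% and 27.1% and Shank2 at 2.75%, 2.49% and 2.46%. The summed level of the Shank genes was 105.8 ± 6.13 FPKM with vehicle, 121.2 ± 9.67 FPKM with NPCT and 91.7 ± 10.2 FPKM with PCT. No test was made of these shares.

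**Figure D4:**
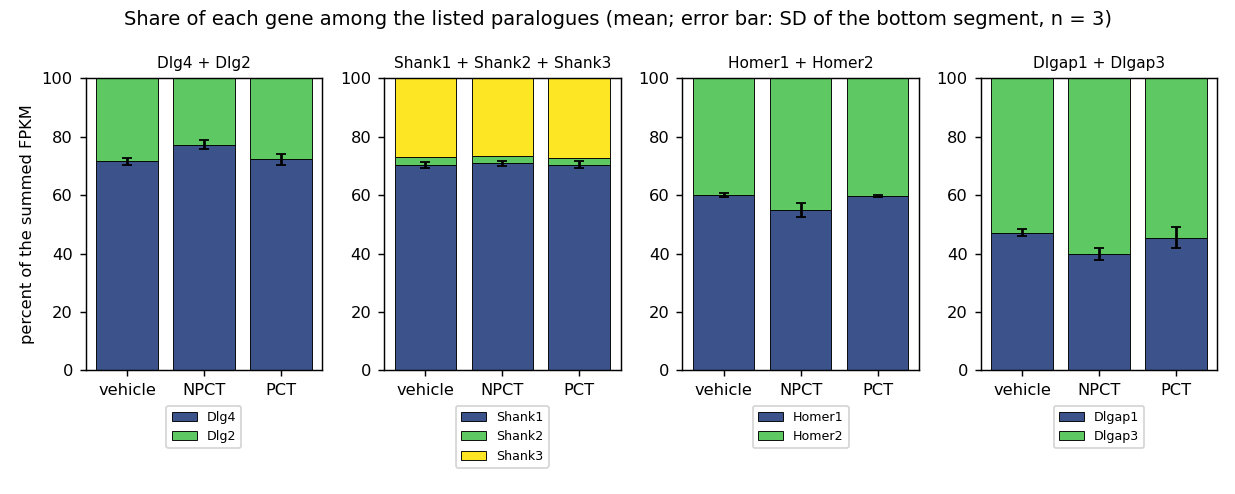
Percent that each scaffold gene contributes to the summed FPKM of the listed paralogues named above each panel (stacked bars, mean of 3 libraries, error bar the SD of the bottom segment) with vehicle, NPCT and PCT. The Dlg4 segment is largest with NPCT (77.3%), while the Shank segments are alike in the 3 groups.

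PSD-95 and gephyrin were stained side by side in the study as marks of excitatory and inhibitory synapses. There, NPCT raised the density of both kinds of puncta and left their ratio unchanged. Those puncta were protein in cultures older than the ones sequenced, so the ratio of transcripts below is another measure. It does not give the balance of synapses. Gphn, on its own, measured 41.8, 42.4 and 40.1 FPKM with vehicle, 31.6, 32.1 and 37.0 FPKM with NPCT and 35.0, 40.1 and 29.2 FPKM with PCT. It was lower than in any vehicle library in the 3 NPCT and the 3 PCT libraries, with log2 fold changes of -0.31 and -0.26 (limma adjusted p 0.112 and 0.239). PCT replicate 2 (40.07 FPKM) was only just below vehicle replicate 3 (40.12 FPKM). The ratio of Dlg4 to Gphn in a library was 2.98, 2.95 and 3.31 with vehicle, 4.73, 4.45 and 3.93 with NPCT and 3.60, 2.87 and 4.87 with PCT. NPCT and vehicle did not overlap, and the log2 ratio differed by 0.50, at the smallest p that an exact two-sided permutation test of 3 against 3 can give, 0.1 (0.3 after Benjamini-Hochberg adjustment over 3 comparisons). PCT covered the vehicle range and beyond (difference 0.26, exact p = 0.4), and NPCT and PCT overlapped (0.24, exact p = 0.5). At an unadjusted p of at most 0.05, 1 of 6 inhibitory synapse genes was higher (14.4% of all genes) and 2 lower (14.9%) with NPCT. The higher one was Nlgn2, the inhibitory neuroligin (0.28, limma adjusted p 0.0997), which had 0.26 between NPCT and PCT. With PCT replicate 3 left out, the log2 ratio of PCT against vehicle was 0.06, and without PCT replicate 2 it was 0.44. The difference between NPCT and PCT was 0.44 without PCT replicate 3 and 0.06 without PCT replicate 2.

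**Figure D5:**
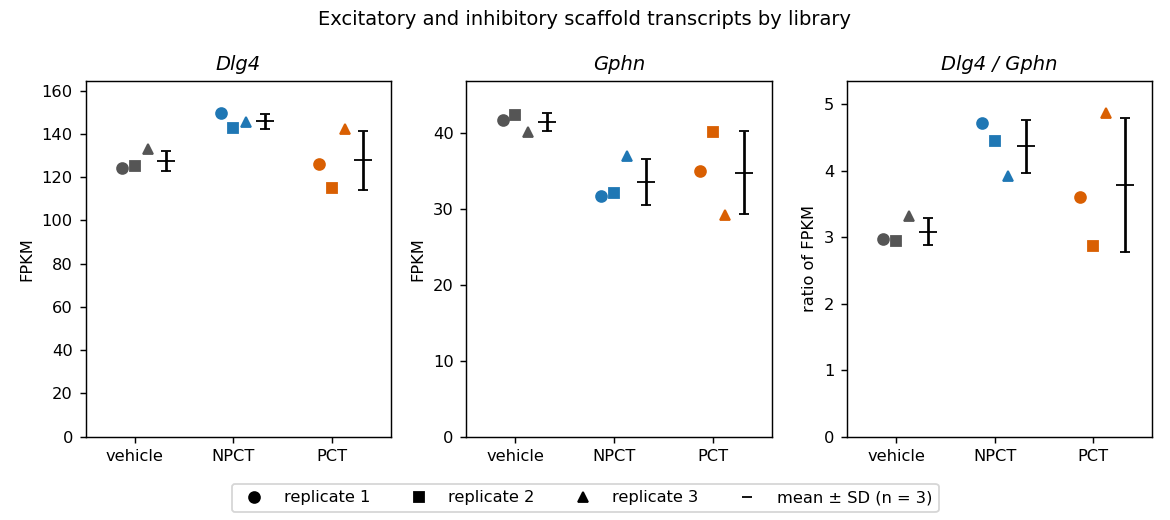
FPKM of Dlg4 and of Gphn and the ratio of the 2 (panels, axes from 0) in each vehicle, NPCT and PCT library, with the mean ± SD. The 3 NPCT libraries have ratios of 3.93 to 4.73, above the vehicle libraries at 2.95 to 3.31, and the PCT libraries run from 2.87 to 4.87.

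The genes whose pattern over the 9 libraries was most like that of Dlg4 were sought among 10063 genes with a symbol and a mean FPKM of at least 5, by the root mean square difference of log2 levels after each gene was centred on its own mean. Apbb1, which encodes an adaptor of the amyloid precursor protein, was nearest at 0.015, followed by the galactosyltransferase gene B4galt2 at 0.025 and Pnma8b at 0.032, with a median of 0.200 over all genes. Dlg4 itself varied by 0.121 around its mean. Apbb1 measured 82.2 to 87.1 FPKM with vehicle, 94.6 to 98.2 with NPCT and 77.5 to 94.6 with PCT, where PCT replicate 3 was the highest of its group as for Dlg4. The scaffold gene nearest to Dlg4 was Homer2, at rank 418, then Shank3 at 877 and Dlgap3 at 1030, while Dlg2 was at 5787. Likeness over 9 libraries includes what the libraries share in composition.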

How the data were processed

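RNA-sequence libraries of rat hippocampal neurons (3 each with vehicle, NPCT and PCT) were analysed from the deposited FPKM values. Per the labels, the authors' processing used CASAVA, HISAT2 2.0.5, StringTie 1.3.3b, featureCounts 1.5.0-p3 and DESeq2 1.20.0 on Rnor_6.0. The authors' FPKM were fragments scaled by gene length and by a factor for each library. That factor was not in exact proportion to the summed fragments. FPKM multiplied by the deposited gene length (another column, in bases) was a whole multiple of 1 step per library in 100% of values (tolerance 0.05), so fragments were recovered. The median ratio to the geometric mean was 1.01 in each library, so the deposited values were already on a common scale.

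log2(FPKM + 0.1) of the 15958 genes that averaged 0.5 FPKM or more was fitted with limma 3.58.1 (R 4.3.3), with 1 mean per group over 9 libraries, an intensity trend and Benjamini-Hochberg adjustment. Fold changes on this scale understate those of low genes. The study tested counts with DESeq2, which was not run here, and limma-voom on the recovered fragments was the alternative based on counts. The fit, the recovery of fragments and the length correction were tested on simulated data. The members and lists were chosen with earlier results of these data known. Named were all 9 members, Gphn, for each list and comparison the 2 genes with the smallest unadjusted p, and the 3 genes most like Dlg4, except that some genes of the lists are not reported here. Neuron, astrocyte and microglia marker lists were given as sums, and as counts or medians in the comparisons. Markers of excitatory neurons and of the oligodendrocyte lineage were given for NPCT against vehicle only. Some other marker lists are not reported here. Egr1 and Dlgap4 were added after their values were seen. Alternatives were pseudocounts of 1 and 0.01, other filters, scalings and models, a replicate block, correction for gene length within each library, and leaving out each library. Sequences came from RefSeq on GRCr8, another build than that of the table.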

Additional observations from a re-analysis of the deposited data

How the results depend on the processing

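No scaffold gene was called in any of 19 alternatives in any of the 3 comparisons. The number with an unadjusted p of at most 0.05 was 4 for NPCT against vehicle and 1 to 6 with a library left out. It was 6 with the trend with gene length removed. For PCT against vehicle it was 1, but 2 with no filter on low values, with median ratio scaling, with quantile normalization and with the replicate block, and 0 to 2 with a library left out. For NPCT against PCT it was 5, and 3 to 6 with a library left out, of which 3 to 5 were higher and 0 to 2 lower, where the median log2 difference of 0.19 ranged from 0.12 to 0.27. For NPCT against vehicle, 35 genes of all were called, but 208 at a mean FPKM of at least 1, 9 with no filter, 189 with quantile normalization, 579 with only the 2 groups, 319 with the replicate block, 2 with the trend with gene length removed, 391 with limma-voom and 0 to 562 with a library left out (562 without PCT replicate 3). The PCT count of 368 went to 172 to 398, and the NPCT against PCT count of 919 to 454 with only the 2 groups and 525 to 1623 with a library left out. Replicate numbers did not pair the libraries (correlations of -0.088 to 0.165). With the block, as in every other fit, no scaffold gene was called. At an unadjusted p of at most 0.05 the block gave 3 higher and 1 lower for NPCT against vehicle, instead of 2 and 2.

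Signs turned only where the estimate was near 0. Dlgap1 turned to 0.034 for NPCT against vehicle and 0.015 for NPCT against PCT with the length trend removed, to 0.017 and 0.0025 with limma-voom, and to -0.028 for PCT against vehicle with quantile normalization. Dlg4 for PCT against vehicle turned to 0.0074 and 0.010 with those first 2 alternatives. With a library left out, NPCT against vehicle ranged from -0.065 to 0.022 for Dlgap1 and from -0.021 to 0.16 for Shank2, and PCT against vehicle from -0.080 to 0.073 for Dlg4, -0.11 to 0.033 for Dlg2, -0.036 to 0.050 for Dlgap1, -0.074 to 0.012 for Homer1 and -0.035 to 0.017 for Homer2. Where no cause is named above, the cause was not tested. With 3 libraries a group, the standard errors of the 9 genes ran from 0.059 (Dlgap1) to 0.139 (Shank2) on the log2 scale.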
